A study of Drosophila melanogaster with 3 samples.

Results

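The sites described here are places where Nerfin-1 binding was strong in replicates 1 and 3 of a chromatin immunoprecipitation and sequencing (ChIP-seq) experiment but not in replicate 2. In each replicate the peaks of highest deposited signal were taken as strong, as many as there are in the authors' reproducible list, which the irreproducible discovery rate (IDR) limits. A replicate 1 summit, the position of highest signal in a peak, was kept if a strong replicate 3 summit lay within 100 bp and no strong replicate 2 summit did. The rule kept 1848 strong replicate 1 summits, 26.2% of all of them. Of the others, 3291 were strong in all 3 replicates, 685 were shared with replicate 2 alone and 1232 with neither. Another 2637 strong replicate 2 summits had no strong summit of either other replicate within 100 bp. A summit of this class can lie in the same region as a member, more than 100 bp from it. The classes are therefore sets of summits and not of separate regions, and the tests between them treat summits as independent. The members were thus selected on the signal ranks of the 3 replicates, and their ranks, signals and list memberships are given as a description.

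All 3 replicates form 1 group and were biological replicates, per the labels. They were whole Drosophila melanogaster embryos of both sexes, 4 to 16 h old, of the strain named nerfin-1, a transgenic line that stably expresses Nerfin-1 with GFP fused to its C terminus. The precipitation used an antibody against GFP. The signal therefore comes from all cells of the embryo that make the tagged protein, and not from any untagged protein of the line. No untagged control was analysed here. Read depth is unknown from peak lists, so no precision could be set from it. The ranges and intervals below cover counting error over summits, and p-values are over summits, not over replicates.

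Nerfin-1 is a zinc-finger transcription factor made in newly born neurons and their precursors, where it is known for holding neurons in their differentiated state and for its part in axon guidance. It belongs to the family of vertebrate INSM1. Nerfin-1 is also known to bind Scalloped (Sd), the fly member of the TEAD family, which reads a short DNA word and is the DNA-binding partner of the Hippo pathway effector Yorkie. GAGA factor and DREF are 2 further fly DNA-binding proteins, known at many promoters.

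Windows of 101 bp centred on summits show the kinds of sequence that the counts below refer to. RefSeq release 6 gave the letters, on the forward strand and in dm6 coordinates. They were taken from the best-ranked members whose window touches no annotated exon. The first set holds the Sd word (ACATTCC or GCATTCC on either strand, in capitals). The tal-1A member lay between genes, 12304 bp from the nearest start site, the Atpalpha member in an intron, and the nerfin-1 member between genes, 997 bp from the start site.
tal-1A (chr3R:13800755-13800855): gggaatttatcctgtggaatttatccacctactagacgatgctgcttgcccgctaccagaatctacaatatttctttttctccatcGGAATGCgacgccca
Atpalpha (chr3R:20957041-20957141): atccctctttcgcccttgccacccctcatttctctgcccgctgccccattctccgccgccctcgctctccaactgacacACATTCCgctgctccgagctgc
nerfin-1 distal (chr3L:908065-908165): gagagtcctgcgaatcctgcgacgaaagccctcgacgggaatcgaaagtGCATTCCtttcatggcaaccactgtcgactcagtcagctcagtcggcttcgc

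The second set holds the word that ranked first among all words of 6 letters, CACCCC, here in capitals as it or its reverse complement stands on the forward strand, and both members lay in introns.
RasGAP1 (chr3L:9854052-9854152): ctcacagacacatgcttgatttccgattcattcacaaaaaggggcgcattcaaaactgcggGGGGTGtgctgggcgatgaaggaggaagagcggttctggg
bmm (chr3L:14781251-14781351): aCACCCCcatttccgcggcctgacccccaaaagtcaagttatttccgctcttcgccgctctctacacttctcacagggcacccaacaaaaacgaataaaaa

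The DREF word (TATCGATA, in capitals) is shown by 2 promoter members whose windows of 201 bp had 30.3% and 33.3% G+C, far below the median of the members.
Jwa (chr2L:18705863-18705963): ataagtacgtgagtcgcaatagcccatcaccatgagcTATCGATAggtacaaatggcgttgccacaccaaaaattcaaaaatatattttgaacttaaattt
CheB93a (chr3R:21406908-21407008): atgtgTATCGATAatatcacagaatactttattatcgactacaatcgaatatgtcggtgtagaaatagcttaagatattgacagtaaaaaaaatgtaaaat

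Of the members that could be used, the best-ranked with none of these words follow.
mat (chr3L:905466-905566): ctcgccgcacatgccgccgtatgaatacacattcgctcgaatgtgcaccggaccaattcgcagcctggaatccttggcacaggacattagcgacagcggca
nerfin-1 promoter (chr3L:908935-909035): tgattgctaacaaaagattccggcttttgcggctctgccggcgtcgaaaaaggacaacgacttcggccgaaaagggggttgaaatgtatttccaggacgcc

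A strong replicate 2 summit lay beside several of the members above, and 2 such summits are shown, 129 bp away at tal-1A and 280 bp away at mat. Others lay 185 bp from the nerfin-1 promoter member and 221 bp from the nerfin-1 distal member. The windows at the replicate 2 summits shown had 39.8% and 37.3% G+C, against 49.3% and 56.7% at the members' replicate 1 summits. At the nerfin-1 promoter member both summits of the pair had 49.3%, so not every pair had this contrast.
tal-1A at the replicate 2 summit (chr3R:13800626-13800726): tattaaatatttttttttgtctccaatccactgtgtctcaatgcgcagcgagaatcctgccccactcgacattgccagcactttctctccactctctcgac
mat at the replicate 2 summit (chr3L:905186-905286): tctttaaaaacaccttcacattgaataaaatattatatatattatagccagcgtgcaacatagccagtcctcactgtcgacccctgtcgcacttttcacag

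In the replicates that chose them, the members covered almost the whole range of strength. Their median rank was 4032 in replicate 1 (lowest 7054, highest 23) and 3672 in replicate 3 (7055 and 22), where rank 1 is the strongest peak. Sites strong in all 3 replicates ranked higher, with medians of 1972 and 2076. The weakest strong peak had a signal of 77.50 in replicate 1, 90.65 in replicate 2 and 60.59 in replicate 3. The next peak down had 77.49 in replicate 1, 90.64 in replicate 2 and 60.59 in replicate 3. Replicate 1 and replicate 3 summits of a member lay a median of 29.0 bp apart.

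Replicate 2 had a weaker summit at more of these places than it had none. Of the 1848 members, 1099 (59.5%) had a weaker replicate 2 summit within 100 bp, at a median rank of 10762 (range 7057 to 29944), and 476 of these ranked within the first 10000. The remaining 749 (40.5%) had no replicate 2 summit within 100 bp among its 30000 peaks. In the list called on the pooled replicates 1727 members (93.5%) had a summit within 100 bp, and in the IDR list 1364 (73.8%) did. Those lists were made with replicates 1 and 3 and are no independent evidence.

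**Figure D1:**
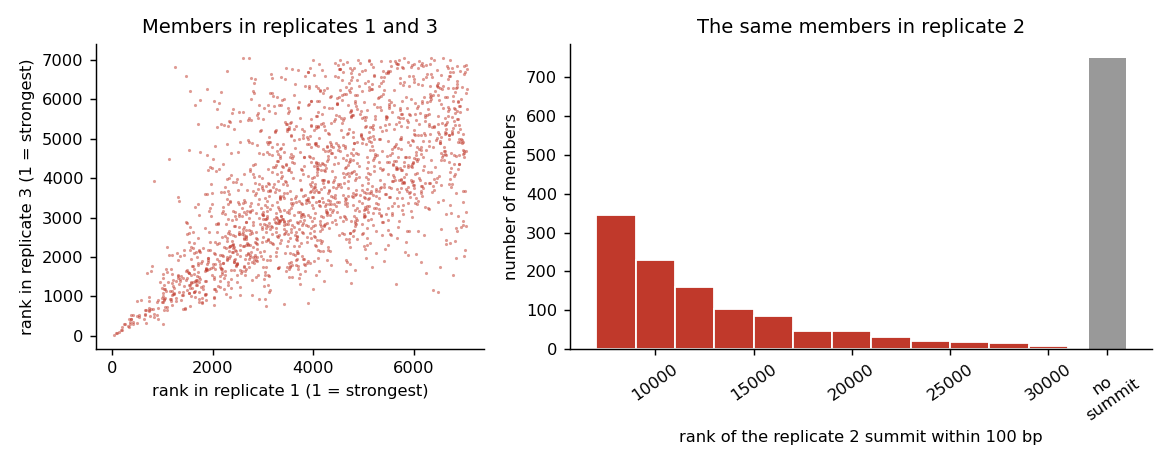
Left, the rank of each of the 1848 members in replicate 1 (x axis) and replicate 3 (y axis), where 1 is the strongest. Right, the number of members (y axis) by the rank of their replicate 2 summit within 100 bp (x axis, red bars of 2000 ranks) and the 749 members with no such summit (grey bar). The red bars are highest just past the limit for strong peaks and fall off towards rank 30000.

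Many members lay beside a strong replicate 2 summit. Such a summit lay 101 to 300 bp away from 417 members (22.6%), at 42 of them only 101 to 110 bp away. These 417 are called shifted members for short, whether or not replicate 2 also had a weaker summit within 100 bp. Whether the same summit had moved or a separate summit lay beside it was not tested. On the other side of the limit, 69 sites strong in all 3 replicates had their strong replicate 2 summit 91 to 100 bp away. Of the rest, 956 (51.7%) had a weaker replicate 2 summit within 100 bp and 475 (25.7%) had neither. The shifted members were the strongest, with a median mean rank over replicates 1 and 3 of 3333, against 4071 for members weaker in replicate 2 and 4236 for those with no replicate 2 summit. They were also in promoters most often (59.0%, 39.6% and 47.4% in the same order).

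Shifted members made up 11 of the 12 with the best mean rank. CG10376 came first, with signals of 1464 in replicate 1 and 1237 in replicate 3, no replicate 2 summit within 100 bp and a strong one at rank 194, 104 bp away. The tal-1A member followed, with signals of 1075 and 869 and a replicate 2 summit at rank 272, 129 bp away. tal-1A belongs to a gene that makes very short peptides needed for patterning of the epidermis. Members at Cam (calmodulin), chico (the insulin receptor substrate), Hs3st-A (a heparan sulfate sulfotransferase), trx (Trithorax, a histone H3 methyltransferase), barc, mat, CG9084, CG1888 and nerfin-1 were also shifted. Of these, the CG9084 and mat members also had a weaker replicate 2 summit within 100 bp, at ranks 8525 and 7981. The only member of the 12 that was not shifted was at RasGAP1, a negative regulator of Ras. It lay in an intron, with signals of 638 and 501 in replicates 1 and 3. It had no replicate 2 summit within 100 bp and no strong one within 300 bp.

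At nerfin-1 itself the members were 3, with 0 sites strong in all 3 replicates and 1 strong in replicate 2 only. The strongest lay 127 bp from the start site with signals of 664 in replicate 1 and 590 in replicate 3, and the nearest strong replicate 2 summit was 185 bp away at rank 1602. A member 83 bp from the start site had signals of 173 and 148 in replicates 1 and 3. Its replicate 2 signal was 89.1, at a rank of 7177, just past the limit. The distal member, which holds the Sd word printed above, had signals of 260 in replicate 1 and 411 in replicate 3. A replicate 2 summit at rank 1100 lay 221 bp from it. The 3 summits shared 1 deposited interval (chr3L:907257-909585), so they are neighbouring maxima of 1 broad region. Their G+C content was 49.3% to 50.2%.

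The clearest common feature of the members was base composition, which the rule did not use. The 201 bp around the summit had a median of 47.3% G+C, against 38.8% at sites strong in all 3 replicates and 32.8% at sites strong in replicate 2 only. Flanking windows 400 bp away had medians of 40.8%, 43.3% and 45.3%. The members' summits were richer in G+C than their own flanks at 71.7% of sites, against 38.2% and 15.0% in the other 2 classes. The members therefore sat on a local maximum of G+C, and both other classes on a local minimum.

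**Figure D2:**
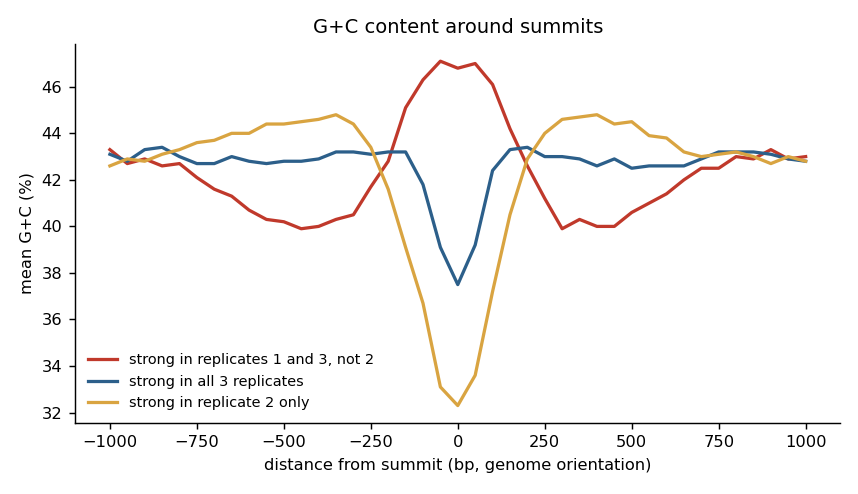
Mean G+C content in percent (y axis, windows of 51 bp) by distance from the summit (x axis, bp) for the members (red), sites strong in all 3 replicates (blue) and sites strong in replicate 2 only (yellow). The members average 46.8% at the summit with a lowest value of 39.9% at 450 bp, whereas the other classes have their lowest values at the summit itself, 37.5% and 32.3%, and the 3 lines meet near 43% at 1000 bp.

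The other classes fell on the same scale by whether replicate 2 was part of them. Sites strong in replicate 1 only had a median of 45.3% G+C and those strong in replicate 3 only 46.3%. Sites strong in replicates 1 and 2 but not 3 had 35.8%, and those strong in replicates 2 and 3 but not 1 had 36.3%. The members' median was 46.8% in promoters, 47.3% in introns and 48.3% between genes, and 57.0% at the 12 summits in coding exons. Within the members, G+C content and rank were all but unrelated, with a Spearman rho across sites of -0.0121 for the replicate 2 rank (n = 1099), -0.00284 for replicate 1 and -0.0854 for replicate 3 (n = 1848 each). Sites share their library in each of these, so they are a description. The G+C bias of each library could not be measured without reads, and its part in the pattern was not tested.

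The 417 members beside a strong replicate 2 summit gave the same contrast within single loci. The median was 45.8% G+C at the replicate 1 summit and 37.8% at the replicate 2 summit of the same pair, and 315 pairs were higher at the replicate 1 summit against 92 at the replicate 2 summit. The Sd word was present at 25 of the replicate 1 summits and 12 of the replicate 2 summits, the GAGA word at 24 and 13, and the CA repeat at 35 and 15. The homeobox word went the other way, with 13 and 40, as did the TATA box, with 16 and 33. Because these pairs were chosen by where the strong summits lay, no test was run on them.

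**Figure D3:**
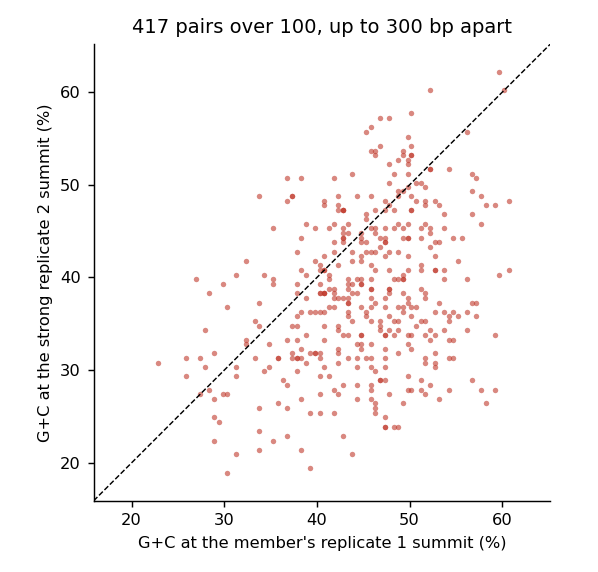
G+C content in percent around the member's replicate 1 summit (x axis) and around the strong replicate 2 summit 101 to 300 bp away (y axis), 1 point for each of 417 pairs; the dashed line marks equal values. Below the line, with more G+C at the member's summit, are 315 pairs, and 92 are above it.

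Members were in promoters less often than sites strong in all 3 replicates. A summit within 500 bp of an annotated start site was called a promoter summit, and 46.0% of the members were (Wilson 95% interval 43.7 to 48.3), against 52.4% of sites strong in all 3 (50.6 to 54.1), which passed Fisher's exact test (adjusted p = 1.29e-04 over 10 comparisons). The difference no longer passed where summits had to match within 50 bp (exact test, adjusted p = 0.493), where members needed to lack any replicate 2 summit (0.686) or where promoters reached 250 bp (0.0815). Against sites strong in replicate 2 only, with 49.3% in promoters, it missed the threshold of the exact test (adjusted p = 0.0671). That difference passed under 6 alternatives, with the lowest odds ratio, 0.731, where no strong replicate 2 interval could overlap (exact test, adjusted p = 9.83e-06). Within 100 bp of the start site lay 23.4% of the members (21.5 to 25.4) and 22.0% of sites strong in all 3 (20.6 to 23.4), with overlapping intervals. Sites strong in replicate 2 only had 19.1% there (17.6 to 20.6), and these shares were not tested.

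Away from promoters, 33.4% of the members were in introns and 17.0% between genes, against 32.2% and 12.8% of sites strong in all 3 and 32.4% and 16.3% of those strong in replicate 2 only. The intergenic share was higher in the members than in sites strong in all 3 (Fisher's exact test, adjusted p = 2.32e-04). It too missed the threshold with matching within 50 bp (0.565) or with no replicate 2 summit allowed (0.400). Only 12 members (0.649%) were in coding exons, a larger share than the 0.114% of sites strong in replicate 2 only (exact test, adjusted p = 0.00971). By chromosome arm, 22.8% of the members were on 2R and 12.4% on X, against 18.4% and 16.2% of the sites strong in all 3 and 17.7% and 18.3% of the sites strong in replicate 2 only. The arms hold 18.9% and 17.6% of the sequence, and arm shares were not tested.

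Words of known DNA-binding proteins were counted within 50 bp of each summit on both strands, and in a window of the same 101 bp centred 400 bp to a side fixed by the position. Of 20 words, 4 were more frequent at the members' summits than in their flanks by an exact McNemar test, 3 were less frequent and 13 did not pass. The Sd word was at 6.49% of summits and 1.95% of flanks (120 and 36 sites, exact test, adjusted p = 4.62e-11). The GAGA word (GAGAGAG), read by GAGA factor, was at 7.41% and 2.00% (exact test, adjusted p = 6.11e-14), and the repeat of CA over 8 letters at 7.85% and 3.14% (adjusted p = 1.60e-09). The palindromic E-box CAGCTG, a site of basic helix-loop-helix proteins, was at 6.93% and 4.55% (exact test, adjusted p = 0.00586). This last call was lost with replicate 3 summits as the anchor (exact test, adjusted p = 0.0848), where members needed to lack any replicate 2 summit (0.224) and without replicate 2 (0.0529).

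Words rich in A and T were depleted at the members against their flanks. Summits and flanks were not matched for G+C content, which had medians of 47.3% and 40.8%. A run of 8 A was at 3.68% of summits and 7.20% of flanks, the homeobox word TAATTA at 3.03% and 6.82%, and the TATA box word TATAAAA at 2.60% and 5.63% (exact tests, adjusted p = 9.17e-06, 8.13e-07 and 1.37e-05). The call on the TATA box was lost with matching within 50 bp (exact test, adjusted p = 0.0848), and that on the run of A where members needed to lack any replicate 2 summit (0.0815). Without replicate 2, where the sites strong in all 3 come in, the call on the homeobox word was lost (ratio of summits to flanks 0.942, against 0.444; exact test, adjusted p = 0.602) and the TATA box was higher at summits (1.27, against 0.462; exact test, adjusted p = 0.0114). The core of the INSM1 word, known from vertebrates (AGGGGGC with A or T first and G or A in the sixth place), was at 46 summits and 46 flanks (2.49% each). DREF was at 0.812% and 0.271% (exact test, adjusted p = 0.0828) and Zelda (CAGGTAG), a word of the early embryo, at 0.216% and 0.271%. M1BP, CAGGTG, Su(H), Sox, Ets, Grh, GATA, POU, Ftz-f1/ERR and AP-1 words did not pass either.

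The Sd word was about equally frequent in the 2 classes strong in both replicates 1 and 3. It was at 6.49% of the members (5.46 to 7.71) and 6.50% of sites strong in all 3 (5.71 to 7.40), with a difference of -0.01 percentage points (Fisher's exact test, adjusted p = 1.00). Sites strong in replicate 2 only had it at 1.74% (1.31 to 2.32), below the members by Fisher's exact test (adjusted p = 1.57e-15) and no more often than in their own flanks at 2.01%. It was at 1.61% of sites shared by replicates 1 and 2, 2.26% of those shared by 2 and 3, 4.63% of those in replicate 1 only (flanks 1.38%) and 3.92% of those in replicate 3 only (flanks 2.57%). The ratio of summits to flanks was 3.33 in the members, 3.35 in replicate 1 only and 2.49 in sites strong in all 3. Among the members its share was highest in the 25-bp bin at -8 bp from the summit in genome orientation, at 1.84%, against a mean of 0.595% beyond 300 bp.

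The match in Sd share between members and sites strong in all 3 depended on what was held equal. Within 5 strata of equal G+C content, by a Mantel-Haenszel chi-square test, members had the word less often (odds ratio 0.593, adjusted p = 5.85e-04). The rule used rank in replicate 1, and its median was 4032 in members and 1972 in sites strong in all 3. Strata of this rank were chosen after seeing the data and do not free the comparison from that selection. Within 5 of them members had the Sd word more often by the same chi-square test (odds ratio 1.54, adjusted p = 0.00626). Over the other alternatives it did not pass, with adjusted p of the exact test from 0.114 to 1.00. In the stratum richest in G+C, 7.79% of 603 members and 15.3% of 432 sites strong in all 3 held the word, and in the poorest 0 of 60 members (which allows up to 5%) and 1.97% of 912. Against sites strong in replicate 2 only, the members' excess also passed the chi-square test within G+C strata (odds ratio 1.97, adjusted p = 0.0341).

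The Sd word was mainly a feature of members away from promoters. It was at 8.82% of the 998 members more than 500 bp from a start site (flanks 2.20%) and at 3.76% of the 850 promoter members (flanks 1.65%). DREF was the reverse, at 15 of the 850 promoter members (1.76%) and at 0 of the 998 others, which allows a share of up to 0.301%. GAGA was alike in both, at 8.24% in promoters and 6.71% elsewhere. In 4 equal bins of mean rank over replicates 1 and 3, from strongest to weakest, the Sd word was at 8.01%, 6.28%, 7.14% and 4.55% of members, and their intervals overlapped. It was at 25 of the 417 shifted members, 7.95% of those weaker in replicate 2 and 4.00% of those with no replicate 2 summit.

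The GAGA word and the CA repeat were more frequent in the members than in sites strong in all 3 or in replicate 2 only. GAGA was at 7.41% of the members, 3.52% of sites strong in all 3 and 0.910% of sites strong in replicate 2 only (Fisher's exact tests, adjusted p = 6.86e-09 and 2.82e-30). The CA repeat was at 7.85%, 4.77% and 1.29% (exact tests, adjusted p = 3.81e-05 and 1.17e-27). Sites strong in replicate 3 only were closer to the members, with 6.35% for GAGA and 6.89% for the CA repeat, within intervals that overlap those of the members, and sites strong in replicate 1 only had 4.71% and 5.76%. Those differences were not tested. Both words were spread over a broad zone that includes the summit. Their shares were highest in the bins at -108 bp (GAGA, 2.87% of members) and -83 bp (CA repeat, 3.30%) from the summit, and in the bin at -8 bp they were 2.27% and 2.33%, against means beyond 300 bp of 0.506% and 1.01%.

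By the chi-square test within G+C strata, neither word passed against sites strong in all 3, at odds ratios of 1.22 (GAGA, adjusted p = 0.341) and 1.01 (CA repeat, adjusted p = 0.967). Against sites strong in replicate 2 only both still passed the chi-square test within strata, at odds ratios of 2.81 and 1.92 (adjusted p = 0.00338 and 0.0134). The summits of that class held both words less often than their own flanks (GAGA 0.910% and 2.65%, CA repeat 1.29% and 5.46%). At sites strong in all 3, summits and flanks had GAGA at 3.52% and 2.28% and the CA repeat at 4.77% and 4.47%. The flank values of these 2 classes were not tested.

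Over all 20 words, members were higher than sites strong in all 3 for 4 (GAGA, CA repeat, CAGCTG and the INSM1 core) and lower for 5 (DREF, run of A, homeobox, GATA and TATA box). Within G+C strata, 0 were higher and 2 lower, the Sd word and CAGGTG. At an unadjusted exact p under 0.05 without strata, CAGGTG too was lower (2.00% against 2.95%, p = 0.0446). The palindromic E-box CAGCTG was at 6.93% of the members, 7.50% of sites strong in replicate 3 only and 6.01% of those strong in replicate 1 only. Against sites strong in replicate 2 only, 6 were higher and 6 lower, and within strata 4 were higher (Sd, GAGA, CA repeat and CAGCTG) and 1 lower (Zelda). The DREF word, lower in members than in either class (0.812%, 1.76% and 2.16%), did not pass the chi-square test within strata (adjusted p = 0.146 and 0.310). Against sites strong in all 3 that call was also lost with matching within 50 bp (exact test, adjusted p = 0.0615) and with replicate 3 summits as the anchor (0.250), and against sites strong in replicate 2 only with 5000 peaks (0.0873). At distal summits alone neither passed (exact tests, adjusted p = 0.259 and 0.357).

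**Figure D4:**
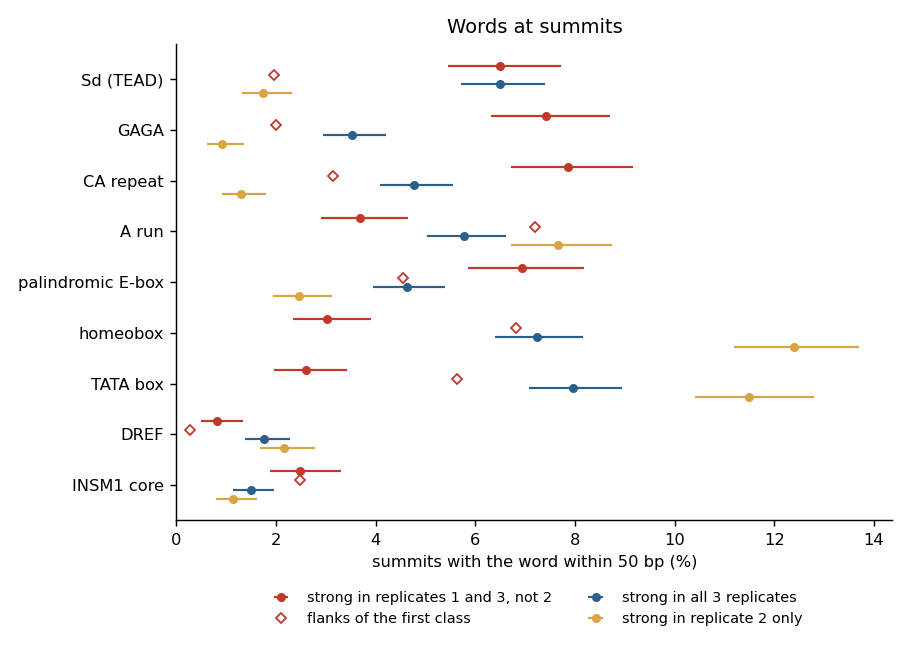
Share of summits in percent with each word within 50 bp (x axis) for the members (red, filled), the members' flanks (red, open diamonds), sites strong in all 3 replicates (blue) and sites strong in replicate 2 only (yellow); bars are Wilson 95% intervals over summits. Members and sites strong in all 3 coincide for the Sd word at 6.49% and 6.50%. Of the 3 classes shown, members are highest for GAGA, the CA repeat and the palindromic E-box.

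All words of 6 letters, counted with their reverse complements, were compared between summits and flanks without regard to known factors. Of these, 272 (13.1%) were more frequent at the members' summits and 280 (13.5%) less frequent by an exact McNemar test with adjustment over all of them. CACCCC had the lowest p, at 10.7% of summits and 3.14% of flanks (exact test, adjusted p = 4.39e-17), and it was at 4.38% of sites strong in all 3 and 1.29% of those strong in replicate 2 only. AGAGAG followed (12.7% and 4.49%), then GAGCGA (10.9% and 3.90%). The less frequent words with the lowest p were TTAAAA (9.25% and 19.0%), TTTAAA (4.55% and 12.3%) and AATTAT (6.55% and 15.2%).

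Most words that were more frequent were rich in G and C. Of the 272, 195 had 4 or more G or C letters and 10 had 2 or fewer, while 258 of the 280 less frequent words had 2 or fewer. Among the 10 with few G or C letters, AATTCC stood out, at 12.1% of summits and 4.87% of flanks (exact test, adjusted p = 3.42e-13) and at 11.9% of sites strong in all 3. ATTCCA was at 10.3% and 6.11% (exact test, adjusted p = 8.28e-05). CATTCC, the shared part of the Sd word, was at 9.36% and 4.71% (exact test, adjusted p = 1.32e-06). With flanks 800 bp away the number of more frequent words was 179, and with matching within 50 bp it was 115.

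Members were nearest to the start sites of 1310 of 13945 protein-coding genes (9.39%), against 2338 (16.8%) for sites strong in all 3 and 2086 (15.0%) for sites strong in replicate 2 only. A site need not act on the gene with the nearest start site. Of the 1310 genes, 983 had exactly 1 member and 119 had 3 or more. Sites strong in all 3 were also present at 563 of them, 43.0% of the genes with a member and 24.1% of the genes with a site strong in all 3. Neither other class was present at 519.

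The genes with the most members were tna (10), CG15233 (9), tara (8), kis and mam (7 each), and Tlk, stan, fz2, Tet and sbb (6 each). The members at CG15233 lay far from it, 5035 to 42637 bp from its start site. tna and tara belong to the trithorax group, kis is a chromatin remodeller, and mam is the coactivator of Notch. stan, a cadherin of planar cell polarity and axon growth, had 6 members and 0 sites strong in all 3. At tara, members, sites strong in all 3 and sites strong in replicate 2 only numbered 8 each. kis had 7 members and 1 site strong in all 3, while Tlk had 6 and 7.

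Gene lists were read against these background shares, and no test was run on them. A gene could be in more than 1 list. kuz was in the Notch pathway and the muscle and mesoderm lists, and Ubx in the Hox and the trachea and epidermis lists. Of the neuron identity factors with a member, vnd, eve and gsb were also in the patterning list. Likewise ap was in the muscle and mesoderm list, vvl in the trachea and epidermis list and ey in the temporal list. sna was in the neuroblast and the muscle and mesoderm lists, and slp1 in the temporal and the patterning lists. Neuron identity factors, the homeodomain and related proteins that set neuron types, had members at 21 of 30 genes (70.0%), against sites strong in all 3 at 14 (46.7%) and in replicate 2 only at 13 (43.3%). Of the 21 genes, 10 had no site strong in all 3. Lim1, a LIM homeobox factor, led, with ranks of 533 in replicate 1 and 484 in replicate 3 and a strong replicate 2 summit 105 bp away. zfh2 followed (1898 and 1980, with a replicate 2 summit at 19177), then toy, a Pax6 gene (2851 and 2363, and 7740 in replicate 2). Their best members were intergenic at 11 genes, intronic at 5 and in promoters at 5.

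Other neural lists were nearer to the sites strong in all 3. Axon guidance genes had members at 17 of 36, against 20 and 14 for the other 2 classes, led by Sema2b and comm, which steer axons, and drl, a Wnt5 receptor. Sema2b had ranks of 1858 in replicate 1, 14065 in replicate 2 and 915 in replicate 3. Temporal factors of neuroblasts had members at 10 of 18, against 13 and 11, led by hth, Kr and ey. Neuroblast factors had 8 of 18, against 11 and 6, led by pros, sna and brat. The list of proneural and related genes had 4 of 12, against 5 and 3, led by emc, tap and Oli. Genes of mature neurons had 6 of 27, against 6 and 4, led by cpx, elav and Gad1.

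Signalling and growth lists differed among themselves. Notch pathway genes had members at 10 of 23, against 10 and 8, led by kuz, mam and E(spl)mbeta-HLH. The receptor gene N had 1 member, in an intron 3232 bp from the nearest start site, with ranks of 2562 and 3846 in replicates 1 and 3 and 10489 in replicate 2. It had 0 sites of the other classes. Hippo pathway genes had members at 3 of 15 (20.0%), against 11 (73.3%) and 8 (53.3%). The 3 were sd, with 3 members and 3 sites strong in all 3, Diap1 and wts. Cell cycle genes had 5 of 20, against 11 and 5, led by CycE, E2f1 and stg. dpn, a gene of neuroblast self-renewal, had 0 sites of any of the 3 classes. Ecdysone response genes had 5 of 12, against 6 and 4, led by Eip75B, Hr3 and Hr4.

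Among further lists, Hox genes had members at 6 of 8, against 4 and 5, led by Dfd, Ubx and abd-A. The best members of these 3 genes lay 24500, 31376 and 12156 bp from the start site of the gene. Patterning genes had 9 of 18, against 10 and 9, led by mid, vnd and nkd. Muscle and mesoderm genes had 9 of 25, against 9 and 8, led by kuz, Act57B and slou. Trachea and epidermis genes had 4 of 14, against 10 and 10, led by Ubx, vvl and shg. Glial genes had 2 of 13, gcm2 and repo, against 6 and 3. Gut and fat body genes had 2 of 8, Fbp1 and fkh, against 4 and 4. Odorant and gustatory receptor genes had 4 of 119 (3.36%), against 5 and 3, led by Or45b, Or67d and Or56a.

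Genes for cytosolic ribosomal proteins had members at 17 of 92 (18.5%), against sites strong in all 3 at 52 (56.5%) and in replicate 2 only at 21 (22.8%). Of the 17 best members, 16 were in promoters and 13 lay beside a strong replicate 2 summit. RpL31 had ranks of 818 in replicate 1 and 681 in replicate 3, and a replicate 2 summit at rank 2232, 102 bp away. RpS7 had ranks of 1691 and 1285, with a replicate 2 summit at rank 2864, 264 bp away. RpS23 had ranks of 1810 and 2239, with one at rank 4914, 179 bp away. Each of these 3 promoters thus had a strong peak in every replicate, with the replicate 2 summit more than 100 bp from that of replicate 1.

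**Figure D5:**
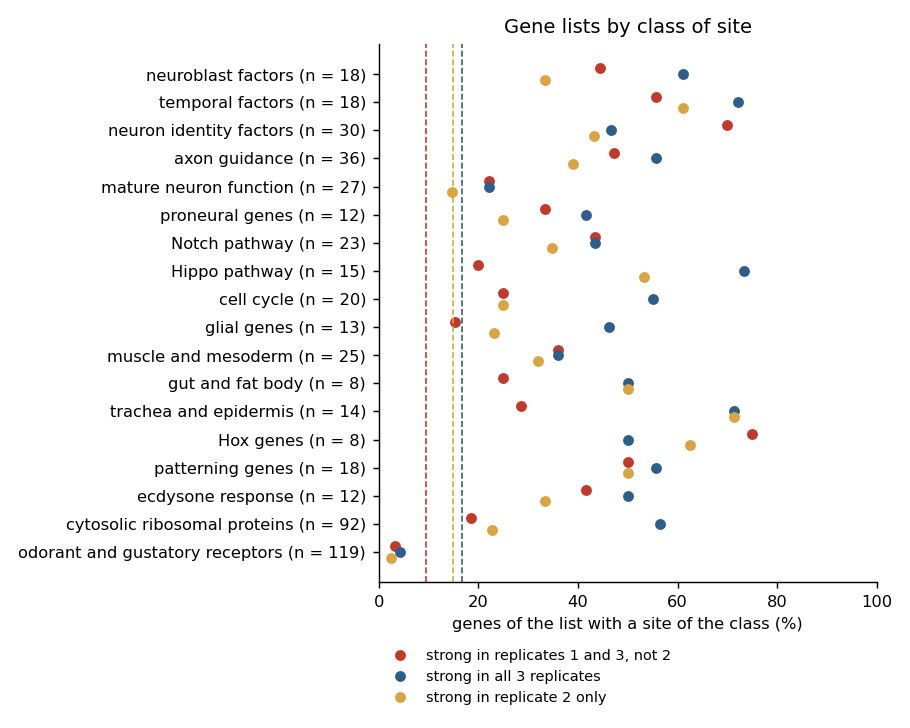
Share of the genes of each list in percent (x axis) that are nearest to 1 or more members (red), sites strong in all 3 replicates (blue) or sites strong in replicate 2 only (yellow); dashed lines mark the shares over all genes, 9.39%, 16.8% and 15.0%, and n is the number of genes. Neuron identity factors have the red point at 70.0% and the blue at 46.7%, and Hippo pathway genes have them at 20.0% and 73.3%.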

How the data were processed

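Peak lists of 3 replicates, of the pooled replicates and of the IDR step, on dm6, were used as the authors deposited them. The signal values that the authors deposited have no stated normalization and only ordered peaks within a list. The deposited −log10 q-values did not order peaks. For the aligner, peak caller and IDR threshold, nothing is given in the sources used here. Fragments were 200 to 800 bp, per the labels. Each list called separately held 30000 rows. Read depth is unknown. Where a second label gave an implausible age, the range in the source label was used.

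Start sites came from Ensembl release 115 (BDGP6.54) and sequence from RefSeq release 6, on 6 arms. Exact McNemar, Fisher's exact and Mantel-Haenszel chi-square tests, all two-sided, used scipy 1.17.1 and statsmodels 0.14.6, with Benjamini-Hochberg adjustment over 20 words against flanks, 40 word and 10 location comparisons between classes, or all words of 6 letters. Thresholds were 0.05. The tests were tested on simulated data with a planted word. Of the list names, 3 did not match 1 gene each and were left out. The members, words and gene lists were chosen with earlier results of these data known. Named genes were those nearest to the 12 best members, the 10 with the most members, the 3 best-ranked of each list, and nerfin-1, dpn, N and sd. Alternatives changed strength limit, matching, anchor, replicates, promoter width, windows, flanks and strata.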

Additional observations from a re-analysis of the deposited data

How the results depend on the processing

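Under the alternatives the number of members was 749 where any replicate 2 summit excluded a site, against 1848. Without replicate 1, 2 or 3 in turn it ran over a range of 3080 to 5139, since fewer lists then decide. The median G+C content was 46.3% with matching within 50 bp, 47.8% where no strong replicate 2 interval could overlap and 47.8% without the shifted members (chosen after seeing the data), and over the replicates left out it ranged over 42.8% to 46.8%, the lowest without replicate 2. The odds ratio of the promoter share against sites strong in all 3 was 0.775, and 0.920 with matching within 50 bp, 0.968 with no replicate 2 summit allowed and 0.880 with promoters of 250 bp, each no longer past the threshold; leaving out a replicate gave 0.800 to 0.846. Words lower at summits numbered 5 in windows of 100 bp each side, against 3. Against sites strong in all 3, the words lower numbered 3 with no replicate 2 summit allowed and 2 within G+C strata, where those higher numbered 0; against sites strong in replicate 2 only, those lower numbered 1 within strata and 3 at distal summits.

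Words of 6 letters more and less frequent numbered 115 and 104 with matching within 50 bp and 42 and 45 with no replicate 2 summit allowed, where fewer sites entered the test; with flanks 800 bp away 179 were more frequent. Without a replicate, those more frequent ranged over 161 to 467 and the less frequent over 191 to 371. Genes with a member numbered 626 with no replicate 2 summit allowed and 1956 to 3085 without a replicate. The direction turned for 3 results that had not passed and for the TATA box. The odds ratio of the Sd word against sites strong in all 3 (0.999) was 1.08 with 5000 peaks, 1.04 with matching within 200 bp, 1.06 with no overlapping strong replicate 2 interval, 1.02 without replicate 3 and 0.908 without replicate 1, 1.29 at distal summits, 1.54 in rank strata and 1.02 without shifted members. The promoter share against replicate 2 only (0.877) turned to 1.10 with no replicate 2 summit allowed and passed at 0.801 with 5000 peaks, 0.731 with no overlapping interval, 0.861 with promoters of 1000 bp, 0.752 without shifted members and 0.885 to 0.894 without replicate 3 or 1, and the intergenic share (1.05) to 0.921 with 10000 peaks, 0.902 with no replicate 2 summit, 0.913 with promoters of 250 bp and 0.983 in G+C strata. The TATA box, lower at summits (ratio 0.462), was higher without replicate 2 (1.27, against 0.521 without replicate 3), where the sites strong in all 3 come in. The other causes were not tested. Without replicate 2 no comparison between classes was possible. No paired analysis was possible because all replicates are in 1 group. Intervals of these results cover summits, and read depth per replicate, which limits weak replicate 2 peaks, is unknown.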
